A study of Mus musculus with 29 samples.

Results

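The livers of old female mice given HDM201 were compared with those of young female mice given vehicle, gene by gene and with no old vehicle mouse in the test. The 10 mice are the 5 old HDM201 females and the 5 young vehicle females of a series with 29 labelled mice, and all genes counted on the genome were considered. The labels give the old females as C57BL/6J mice of 20 months and the young females as C57BL6/N mice of 5 months, while the study's methods state other ages for both. HDM201 was suspended in methylcellulose and given at 10 mg/kg as 1 oral gavage a day, and livers were taken after 14 days in the morning. Mice came from Jackson Labs and Charles River, and the labels name no genotype other than the substrain. Age, substrain and drug all change between these 2 groups, so that their parts cannot be told apart in this comparison. The 4 old vehicle females of the series, C57BL/6J mice of 20 months without the drug, are quoted beside single genes as a reference only. Polyadenylated RNA was sequenced from pieces of whole liver, in which fewer cells of a type and less RNA per cell cannot be told apart.

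HDM201 occupies the pocket of MDM2 that holds p53. MDM2 is a ubiquitin ligase that marks p53 for destruction and is itself transcribed by p53, so that an inhibitor of the contact lets p53 accumulate and its target genes, such as the cyclin-dependent kinase inhibitor Cdkn1a, be transcribed. Mouse liver is one of the most sexually dimorphic tissues, because the pattern of growth hormone secretion differs between the sexes and sets the activity of the transcription factor STAT5 in hepatocytes, and with it many cytochromes, sulfotransferases and urinary proteins. Old mouse liver is known for immune cell infiltrates, secreted inflammatory factors and altered lipid metabolism.

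Promoters of 4 genes are shown first, because the genes behind them carry patterns described further on. Each is the 250 bases before a transcription start in the RefSeq annotation of GRCm38.p6, printed 5′ to 3′ on the strand of the gene, with matches to a named motif in capitals.
A1bg, chr15:60921271-60921520, minus strand: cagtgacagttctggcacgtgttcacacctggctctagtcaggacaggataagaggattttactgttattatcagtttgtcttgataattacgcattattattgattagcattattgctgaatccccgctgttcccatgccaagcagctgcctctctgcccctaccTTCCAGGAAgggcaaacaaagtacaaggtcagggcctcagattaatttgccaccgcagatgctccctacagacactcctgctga
Sult3a1, chr10:33857472-33857721, plus strand: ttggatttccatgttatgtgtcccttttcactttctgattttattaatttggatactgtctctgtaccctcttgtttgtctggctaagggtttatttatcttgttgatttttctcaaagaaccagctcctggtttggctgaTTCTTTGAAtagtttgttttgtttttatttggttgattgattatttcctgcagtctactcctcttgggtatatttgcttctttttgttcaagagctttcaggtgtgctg
Sdhd, chr9:50603850-50604099, minus strand: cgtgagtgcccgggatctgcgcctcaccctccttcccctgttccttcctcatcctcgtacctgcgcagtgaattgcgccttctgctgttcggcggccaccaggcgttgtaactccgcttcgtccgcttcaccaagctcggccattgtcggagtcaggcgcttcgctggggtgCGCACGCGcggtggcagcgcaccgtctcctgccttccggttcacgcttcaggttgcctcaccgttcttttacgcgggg
Ciart, chr3:95882229-95882478, minus strand: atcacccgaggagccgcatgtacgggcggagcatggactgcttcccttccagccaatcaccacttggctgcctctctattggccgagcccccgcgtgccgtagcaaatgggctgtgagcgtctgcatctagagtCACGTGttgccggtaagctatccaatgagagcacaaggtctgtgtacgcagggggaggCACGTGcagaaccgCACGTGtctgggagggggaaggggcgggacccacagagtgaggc
In A1bg and Sult3a1 the capitals mark TTCNNNGAA, the palindromic consensus of STAT5 and other STAT proteins, in a pair of sex-dimorphic genes of which the first was far higher and the second far lower in the old HDM201 livers. In Sdhd, a subunit of respiratory complex II, they mark CGCANGCG, the inner part of the motif of NRF1, a factor known for transcribing respiratory chain genes. In Ciart, a repressor of the circadian clock, they mark 3 copies of CACGTG, the E-box to which CLOCK and BMAL1 bind. Both strands were searched in the 250 bases before each start. TTCNNNGAA was in 7.02% of 32851 promoters of all genes, in 4 of 24 promoters (16.7%) of the female-biased liver genes and in 2 of 18 (11.1%) of the male-biased ones. CGCANGCG was in 6.76% of all promoters and in 4 of 23 (17.4%) of the respiratory chain genes. CACGTG was in 6.02% of all promoters and in 6 of 22 (27.3%) of the clock genes. TGACGTCA, the cyclic AMP response element, was in 1.55% of all promoters and in 2 of 23 (8.7%) of the immediate early genes. These are matches of letters and not sites shown to be bound.

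Counts on genes summed to 17069500 to 23570500 in these 10 libraries, and the totals of the groups overlapped (two-sided exact permutation test of the means, p = 0.27, adjusted p = 0.324 over 6 library measures). Within a group any 2 livers correlated at r = 0.987 to 0.993 over genes and between the groups at 0.967 to 0.982, given as a description. In all 10 libraries Xist, the RNA that silences an X chromosome, was at 412 to 511 CPM (counts scaled to a common library total) in young and 285 to 355 CPM in old HDM201 mice, and the Y-linked genes checked had no count, as labels of female mice require. The share of reads on the 37 genes of the mitochondrial genome was 3.24% ± 0.31 (SD, n = 5) in old HDM201 and 4.85% ± 0.23 in young livers, with no overlap (exact permutation test, p = 0.00794, the smallest that 5 against 5 can give, adjusted p = 0.0238). The share on immunoglobulin genes was 0.0200% ± 0.0101 against 0.00264% ± 0.00044 (exact permutation test, p = 0.00794, adjusted p = 0.0238). Nnt, which the substrain C57BL/6J is known to carry with a deletion of several exons, was at 2.24 to 4.41 CPM in young and 2.09 to 3.43 CPM in old HDM201 mice, and a count over the whole gene does not show that deletion.

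Old HDM201 and young vehicle females differed in 3756 of the 13995 genes tested (26.8%) at a false discovery rate (FDR) under 0.05 in edgeR's quasi-likelihood test. Transcripts of 1988 genes (14.2%) were higher and those of 1768 genes (12.6%) lower in the old HDM201 livers. The differences were mostly small, with a median of 0.52 on the log2 scale in either direction, and 475 genes at least doubled while 264 at least halved. Over all genes tested the median log2 fold change was 0.01. CPM of the 2 groups did not overlap for 2386 of the genes tested (17.0%), and 2269 of those were called. In the 3 female groups the first principal component held 45.2% of the variance, and on it the 5 young mice sat at negative values and all old mice, treated or not, at positive ones. The second held 12.3%, and there the old HDM201 mice were positive and the old vehicle mice negative.

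**Figure D1:**
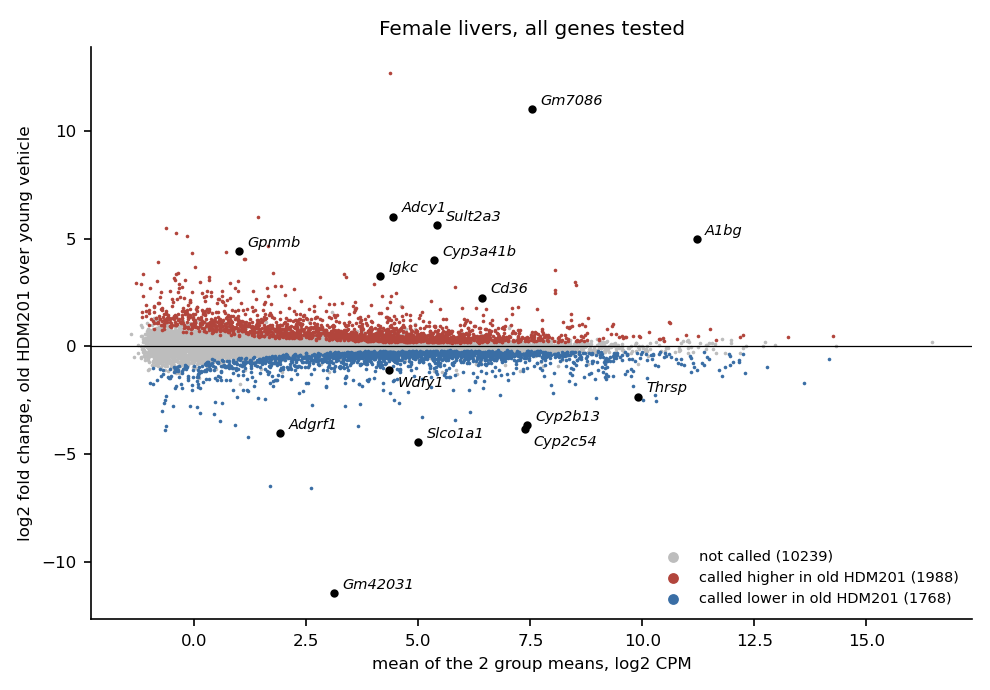
Each point is one of the 13995 genes tested, with the log2 of the mean of both group means in CPM on the horizontal axis and the log2 fold change of old HDM201 over young vehicle females on the vertical axis. The 1988 genes called higher are red, the 1768 called lower are blue and genes discussed in the text are named in black.

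Large rises among protein-coding genes were held by genes nearly silent in young livers. Adcy1, a calcium-sensitive adenylate cyclase, was at 0.378, 0.513, 1.35, 0.287 and 0.637 CPM in the young mice and at 85.5, 16.9, 36.3, 49.9 and 23.8 CPM in the old HDM201 mice, in the order of their labels. The groups did not overlap, and the log2 fold change was 6.02 ± 0.52 (standard error, SE; FDR = 8.34e-06).

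A1bg, a secreted immunoglobulin-like protein of female liver, was at 204, 183, 269.7, 46.2 and 26.7 CPM in young and 7953, 4405, 2821, 4044 and 3795 CPM in old HDM201 mice. It rose by 4.98 ± 0.59 on the log2 scale (FDR = 8.79e-05), and every old HDM201 mouse lay far above the highest young one. A1bg lies on chromosome 15, 60896859 to 60923012 in GRCm38. Near it, the pseudogene Gm7086 (chromosome 15, 60742858 to 60746535), named after its values were seen, was at 0.0630 to 0.312 CPM in young and at 1492, 66.6, 83.8, 70.7 and 133 CPM in old HDM201 mice (log2 fold change 11.01 ± 1.37, FDR = 0.000122). Its highest value was in old HDM201 female 1, and in the old vehicle mice it held 3.85, 6.68, 7.63 and 712 CPM, with female 4 far above the rest. A pseudogene can share reads with its parent gene, which makes its count uncertain.

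Further large rises were those of genes known from macrophages and injured epithelium. Gpnmb, a glycoprotein of lipid-laden macrophages, was at 0.126, 0, 0.312, 0.115 and 0.294 CPM in young and 4.18, 2.52, 4.53, 4.897 and 2.87 CPM in old HDM201 mice (4.41 ± 0.40 on the log2 scale, FDR = 1.45e-05). Mmp7, a matrix metalloproteinase of injured epithelium, was higher, at 0 to 0.147 CPM in young and 0.656 to 3.49 CPM in old HDM201 mice (4.31 ± 0.57, FDR = 0.000185). Mmp12, the elastase of macrophages, was higher, at 0.104 to 0.359 CPM in young and 1.31 to 6.58 CPM in old HDM201 mice (4.07 ± 0.49, FDR = 0.000103). None of these overlapped between the groups. Gdf3, a TGF-beta family ligand, had 3 counts in all young mice together against 158 in the old HDM201 mice, which per read counted is 46.2 times as many (exact 95% interval 15.5 to 226.6, for counting error only). The predicted gene Gm15446 was higher, at 0.0513 to 0.245 CPM in young and 2.67 to 3.61 CPM in old HDM201 mice and lay at 2.81 to 3.87 CPM in old vehicle mice.

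The deepest losses included a transcript without a count in any old HDM201 female liver. Gm42031, a long intergenic non-coding RNA (chromosome 8, 85125872 to 85132289), was at 6.62, 33.2, 10.2, 14.2 and 22.3 CPM in young mice and had no count in any of the 5 old HDM201 mice, at least 627-fold lower against a floor of 3 counts over the group. Old vehicle females held 0 to 0.111 CPM. Gm4316, another such RNA (chromosome 8, 123165255 to 123178765), was lower, at 3.63 to 12.2 CPM in young and 0.0416 to 0.157 CPM in old HDM201 mice (-6.45 ± 0.52, FDR = 4.6e-06). Both were named after their values were seen, and both were near 0 in old HDM201 males too, at 0 to 0.115 and 0 to 0.0556 CPM, and in old vehicle males, at 0 to 0.156 and 0 to 0.116 CPM, against 5.71 to 92.3 and 0.114 to 3.58 CPM in young males. In both sexes no old HDM201 mouse reached a young one, while for Gm4316 the highest old vehicle male lay just above the lowest young male. Every old mouse of the series is C57BL/6J and every young one C57BL6/N.

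Wdfy1, an adaptor of endosomal Toll-like receptor signalling, was named after its values were seen because its groups were so narrow. It was at 25.5, 28.2, 30.7, 28.8 and 24.7 CPM in young and 11.8, 13.1, 12.1, 14.7 and 12.7 CPM in old HDM201 females, a log2 fold change of -1.10 ± 0.09 (FDR = 4.42e-06), and old vehicle females lay at 11.3 to 14.1 CPM. In males it was at 26.4 to 30.3 CPM in young and 9.599 to 12.5 CPM in old HDM201 mice. No old HDM201 mouse reached a young mouse of its sex.

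Eif4ebp3, an inhibitor of cap-dependent translation, was at 26.6, 35.7, 19.2, 16.2 and 19.3 CPM in young and 2.45, 1.86, 1.91, 1.07 and 1.97 CPM in old HDM201 mice (-3.67 ± 0.25, FDR = 1.57e-06). Adgrf1, an adhesion G protein-coupled receptor, was at 7.44, 6.56, 8.998, 5.81 and 6.86 CPM in young and 0.261, 0.328, 0.457, 0.757 and 0.329 CPM in old HDM201 mice (-4.02 ± 0.23, FDR = 8.15e-07). The predicted gene Gm3839 was lower, at 2.13 to 4.92 CPM in young and 0.0940 to 0.470 CPM in old HDM201 mice. All 3 were separated without overlap, and the last is a pseudogene in RefSeq, so its reads are uncertain.

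The sex-dimorphic genes of the liver were among those that separated the groups most. Of 25 female-biased liver genes tested, 17 were called higher (14.2% of all genes) and 7 lower, with a median log2 fold change of 1.01 against 0.01 over all genes, and 19 of the 25 did not overlap (17.0% of all genes). In a single fit over all 27 libraries of both sexes, which share the estimate of the spread, 11 were called higher and 4 lower. Of 16 male-biased genes tested among 24 listed, 11 were called lower (12.6% of all genes) and 1 higher, with a median of -1.17.

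Beside A1bg, the female-biased genes that rose included sulfotransferases and cytochromes of steroid metabolism. Sult2a3, a hydroxysteroid sulfotransferase that the list does not hold, was at 2.52, 0.666, 0.780, 0.345 and 3.97 CPM in young and 48.5, 108, 73.8, 92.6 and 96.5 CPM in old HDM201 mice (5.64 ± 0.42, FDR = 3.51e-06), and its relatives Sult2a1 and Sult2a2 rose by 3.00 and 3.54. Cyp3a41b, a steroid hydroxylase of female liver, was at 5.93, 2.15, 10.2, 0.517 and 4.85 CPM in young and 106, 77.6, 61.9, 68.4 and 72.02 CPM in old HDM201 mice (4.02 ± 0.43, FDR = 4.68e-05). Cyp3a44 and Cyp3a16 rose by 2.83 and 2.62, and Cyp3a41a by 1.23. The members of both families are near-identical copies, so the split of reads among them is uncertain. Smaller rises were those of Hao2, a hydroxyacid oxidase (1.78), Prlr, the prolactin receptor (1.01), and Cux2, a repressor of male-biased genes (0.91). In males Sult2a3 had no count in any of the 13 mice. The pseudogene Zbed4-ps1, on chromosome 7 as Sult2a3 is and named after its values were seen, was at 0 to 0.196 CPM in young and 0.835 to 8.31 CPM in old HDM201 mice.

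Other female-biased genes went the opposite way. Cyp2b13, a cytochrome of female liver, was at 315, 238, 301, 379.8 and 347 CPM in young and 6.68, 8.31, 37.00, 57.2 and 15.8 CPM in old HDM201 mice, a log2 fold change of -3.66 ± 0.49 (FDR = 0.000203). Sult3a1, an amine sulfotransferase, was at 158, 149, 135, 113 and 80.1 CPM in young and 37.5, 8.202, 8.52, 11.4 and 12.4 CPM in old HDM201 mice (-3.03 ± 0.38, FDR = 0.000123). Neither overlapped between the groups, although old HDM201 female 1 kept more Sult3a1 than the others. Log2 fold changes were -2.38 for Sult3a2 and -0.62 for Cyp2b9. Genes known for the same sex bias thus moved in both directions.

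Male-biased genes were lower still in old HDM201 females than in young ones. Slco1a1, an organic anion transporter, was at 48.5, 91.1, 75.7, 59.4 and 30.6 CPM in young and 3.44, 3.01, 2.49, 3.87 and 1.55 CPM in old HDM201 females (-4.41 ± 0.30, FDR = 1.57e-06). Cyp2d9, a male-type steroid hydroxylase, was at 72.9, 67.8, 40.7, 80.2 and 45.2 CPM in young and 4.38, 9.73, 4.61, 6.37 and 7.24 CPM in old HDM201 females (-3.25 ± 0.24, FDR = 2.82e-06). Mup20, the male pheromone darcin, was lower, at 23.98 to 44.00 CPM in young and 8.86 to 14.1 CPM in old HDM201 mice (-1.54 ± 0.16), and Mup11 from 0.632 to 2.08 CPM to 0.0416 to 0.157 CPM. Major urinary proteins are near-identical copies whose reads are hard to assign. Cyp2c54, an arachidonic acid epoxygenase outside both lists, was lower, at 215 to 404 CPM in young and 11.4 to 34.7 CPM in old HDM201 mice (-3.84 ± 0.30, FDR = 4.19e-06). Where a list member is given by its log2 fold change alone, here and below, it was chosen after its values were seen. The growth hormone and IGF axis had 5 of 15 genes higher and 0 lower (14.2% and 12.6% of all genes), with a median of 0.37.

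**Figure D2:**
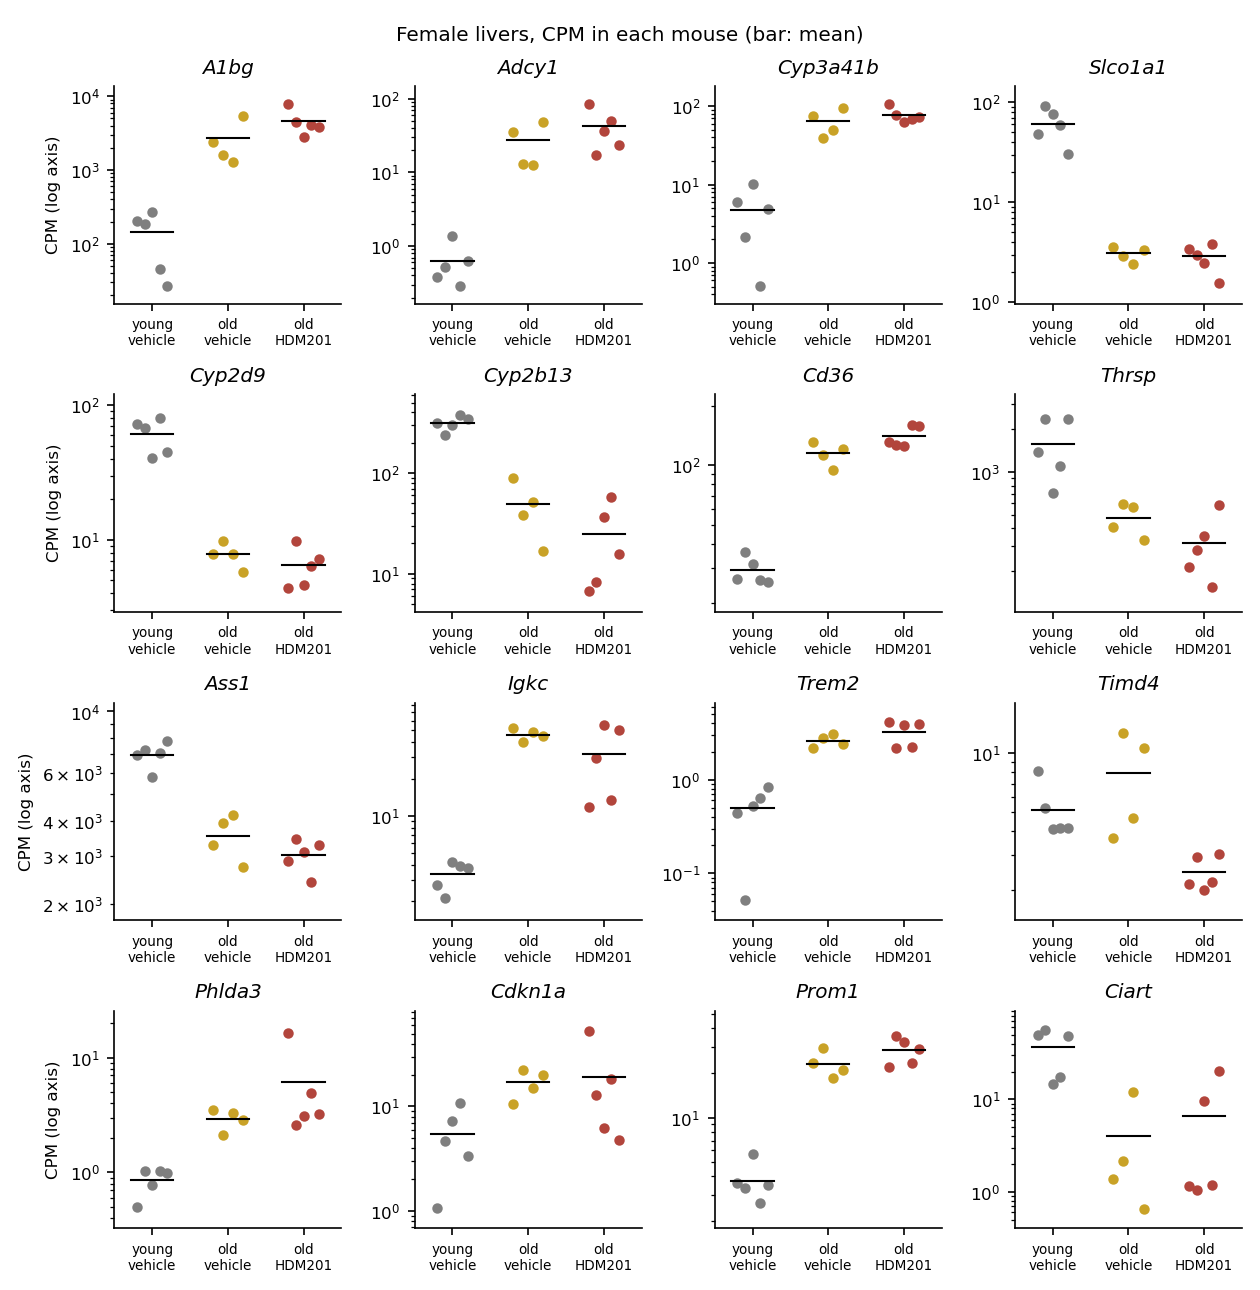
Each panel shows CPM on a log axis for 1 gene in each young vehicle (grey), old vehicle (yellow) and old HDM201 (red) female, with a bar at the group mean. The old HDM201 mice lie apart from the young mice for every gene shown except Cdkn1a and Ciart, and old HDM201 female 1, the leftmost red point, is the highest for Phlda3 and Cdkn1a.

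Transcripts of the B lineage were higher in the old HDM201 livers. Of 15 B cell genes listed 12 passed the filter on low counts, and those 12 were called higher (14.2% of all genes), with a median log2 fold change of 1.19. Cd79a, a signalling chain of the B cell receptor, was at 0.883, 0.513, 0.832, 1.09 and 0.637 CPM in young and 2.296, 1.804, 2.41, 1.42 and 1.83 CPM in old HDM201 mice (1.31 ± 0.24, FDR = 0.0016). Ms4a1, the antigen CD20, was higher, at 0.172 to 0.676 CPM in young and 0.873 to 1.64 CPM in old HDM201 mice (1.51 ± 0.37). The filter can be met by the 5 libraries of 1 group, so a gene that is low in young livers can pass through the old HDM201 livers alone, and this count, like that of the other low lists below, is a description. Without young vehicle female 5 the count fell to 7. Summed over the list, the genes held 9.12 to 14.5 CPM in young and 20.3 to 28.8 CPM in old HDM201 mice.

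Of 12 plasma cell genes tested among 18 listed, 8 were higher and 0 lower (14.2% and 12.6% of all genes), with a median of 1.85. Igkc, the constant region of the kappa light chain, was at 2.71, 2.15, 4.16, 3.91 and 3.78 CPM in young and 11.8, 29.5, 55.2, 13.5 and 50.2 CPM in old HDM201 mice (3.25 ± 0.42, FDR = 0.000168). The lowest old HDM201 mouse still exceeded the highest young one. Ighg2c, the constant region of a class-switched heavy chain, ranged from 0.0490 to 0.632 CPM in young to 0.574 to 20.3 CPM in old HDM201 mice, which overlapped. Jchain, which joins secreted IgA and IgM, rose by 2.37 and Ighm by 2.76. All immunoglobulin genes together took the larger share of reads given above.

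Myeloid genes differed by kind of cell. Of 23 macrophage and monocyte genes tested, 10 were higher and 1 lower (14.2% and 12.6% of all genes), with a median of 0.63. Trem2, a lipid receptor of macrophages, was at 0.441, 0.0513, 0.520, 0.632 and 0.834 CPM in young and 4.12, 2.19, 3.87, 2.23 and 3.899 CPM in old HDM201 mice (2.70 ± 0.38, FDR = 0.000269). Itgax, the integrin CD11c, rose by 1.71, Spp1, the matrix protein osteopontin, by 1.28, and Ccr2, the receptor of recruited monocytes, by 1.17.

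The identity genes of Kupffer cells, the resident macrophages of liver, gave 2 higher and 3 lower of 15 (14.2% and 12.6% of all genes). Their median was -0.06. Timd4, a receptor for dying cells that long-lived Kupffer cells carry, was at 8.13, 5.23, 4.11, 4.14 and 4.17 CPM in young and 2.14, 2.95, 1.996, 2.18 and 3.05 CPM in old HDM201 mice (-1.06 ± 0.22, FDR = 0.00328). Old vehicle mice held 3.69, 12.8, 4.65 and 10.6 CPM, none below the old HDM201 mice. Cd163, the scavenger receptor for hemoglobin, was lower, at 15.1 to 25.8 CPM in young and 3.34 to 11.3 CPM in old HDM201 mice (-1.76 ± 0.28). The 2 called higher were Id3 (1.17 ± 0.24, FDR = 0.00372), which did not overlap between the groups, and Hmox1 (0.60 ± 0.13, FDR = 0.00508), which did. The Kupffer cell list was thus called at shares near those of all genes, and its summed level overlapped between the groups.

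Of 12 neutrophil genes 3 passed the filter on low counts and were called higher, and since such genes can pass through the old HDM201 livers alone, the count supports nothing by itself. Summed over all 12, the list was at 2.01 to 4.25 CPM in young and 7.82 to 11.1 CPM in old HDM201 mice. S100a9, a calcium-binding alarmin, was at 0, 0.359, 0.312, 0.747 and 0.245 CPM in young and 2.401, 1.48, 1.54, 1.603 and 2.63 CPM in old HDM201 mice (2.501 ± 0.43, FDR = 0.00108), while old vehicle mice held 1.48 to 12.5 CPM. Csf3r, the receptor of the granulocyte growth factor, was at 1.47 to 2.71 CPM and 3.88 to 4.98 CPM (1.00 ± 0.18). Of 12 T and natural killer cell genes tested among 30 listed, 0 were higher and 1 lower (14.2% and 12.6% of all genes). Of 6 dendritic cell genes 1 was higher and 0 lower. Most genes of these last lists were too low to test, and what they can show is limited by depth.

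Most antigen presentation genes tested were not called in treated females. Of 10 MHC class II genes tested, 3 were higher and 0 lower (14.2% and 12.6% of all genes). The log2 fold change was positive for 9 of the 10, with a median of 0.40. H2-Aa, a class II chain named after its values were seen, was at 26.1, 20.5, 17.9, 25.1 and 25.5 CPM in young and 18.4, 26.7, 32.97, 24.8 and 30.02 CPM in old HDM201 mice. Its log2 fold change of 0.21 ± 0.15 was not called (FDR = 0.32). Old vehicle mice held 57.3, 55.7, 44.9 and 38.7 CPM. The 3 called were Ciita, the class II transactivator, at 0.769 to 1.62 against 1.62 to 3.28 CPM (0.97 ± 0.25), Ctss, the protease that clears the invariant chain, at 19.2 to 25.8 against 25.9 to 36.03 CPM (0.42 ± 0.10), and Cd74, the invariant chain itself (0.39). Of 17 MHC class I genes 0 were higher and 3 lower. One of them, H2-Q7, a non-classical chain with near-identical relatives, was at 91.5 to 146 CPM in young and 83.2 to 99.2 CPM in old HDM201 mice (-0.38 ± 0.11). None of the 3 was called without old HDM201 female 4 or 5 or young vehicle female 5, and 1 was without old HDM201 female 3 or young vehicle female 4.

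Interferon-stimulated genes were called at shares near those of all genes. Of 29, 4 were higher and 6 lower (14.2% and 12.6% of all genes), with a median of -0.20, and 3 were lower without old HDM201 female 4. Usp18, the protease that removes ISG15, was at 10.2, 14.05, 12.7, 8.62 and 11.5 CPM in young and 4.54, 6.34, 5.99, 5.74 and 7.799 CPM in old HDM201 mice (-0.91 ± 0.16, FDR = 0.0011). Zbp1, a sensor of Z-form nucleic acid, went the other way, from 6.24, 5.895, 7.49, 4.14 and 4.95 CPM to 11.6, 10.4, 11.9, 11.2 and 11.4 CPM (0.98 ± 0.14, FDR = 0.00026). Ifng was at 0 to 0.0490 CPM in young and 0 to 0.109 CPM in old HDM201 mice, and neither it nor Tnf was abundant enough to test. Of 15 GTPases induced by interferon-gamma, 2 were higher and 0 lower.

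Most genes tested of the senescence-associated secretory phenotype (SASP), the secreted factors of senescent cells, were called higher than in young livers. Of 27 tested among 38 listed, 18 were higher and 1 lower (14.2% and 12.6% of all genes), with a median of 0.88. The list overlaps those of chemokines, matrix and macrophages. Its summed level overlapped between the groups, at 2727 to 3341 CPM in young and 2823 to 3630 CPM in old HDM201 mice. Low genes can pass the filter through the old HDM201 livers alone, so this count, like that of the chemokines below, is a description. Ccl2, which draws monocytes, was at 0.315, 0.256, 0.364, 0.287 and 0.196 CPM in young and 2.35, 1.48, 0.915, 2.54 and 0.987 CPM in old HDM201 mice (2.52 ± 0.37, FDR = 0.000433). Gdf15, a stress-induced hormone, was at 10.1, 3.43, 2.76, 3.62 and 3.73 CPM in young and 42.6, 11.3, 8.36, 19.1 and 14.8 CPM in old HDM201 mice (2.04 ± 0.45, FDR = 0.00503). The groups overlapped through young vehicle female 1. Plaur, Mmp14 and Icam1 rose by 1.27, 1.19 and 1.12.

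Chemokines and their receptors gave 11 higher and 1 lower of 21 tested among 32 listed (14.2% and 12.6% of all genes), and 7 higher without young vehicle female 2. Cx3cr1, the fractalkine receptor of monocytes, was at 0.252, 0.769, 0.572, 0.517 and 0.392 CPM in young and 3.34, 1.695, 2.95, 2.49 and 2.35 CPM in old HDM201 mice (2.33 ± 0.27, FDR = 8.74e-05). Its ligand Cx3cl1 rose by 1.06, and Ccl5 and Cxcl1 rose by 0.92 and 0.88. Tgfb1, a ligand that drives matrix production, was at 9.52, 9.48, 7.698, 9.89 and 9.17 CPM and 14.4, 11.2, 14.9, 13.1 and 13.8 CPM (0.56 ± 0.10, FDR = 0.00169).

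Target genes of p53 were in part above the young level. Of 29 core targets tested, 9 were higher and 1 lower (14.2% and 12.6% of all genes), with a median of 0.42 (0.19 without old HDM201 female 1). Eda2r, a death receptor for ectodysplasin, was at 0.126, 0.205, 0.208, 0.230 and 0.392 CPM in young and 6.42, 1.09, 0.707, 1.91 and 1.32 CPM in old HDM201 mice (3.22 ± 0.65, FDR = 0.00315). Phlda3, an inhibitor of AKT, was at 0.504, 1.03, 0.780, 1.03 and 0.981 CPM and 16.5, 2.57, 3.12, 4.897 and 3.24 CPM (2.78 ± 0.53, FDR = 0.00217). For both, old HDM201 female 1 was several times above the rest of its group, which still did not overlap the young mice. Without that mouse 5 of the targets were called higher, as without old HDM201 female 4 or young vehicle female 1, 3 or 5.

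Cdkn1a, which encodes the cell cycle inhibitor p21, was at 1.07, 4.61, 7.18, 10.9 and 3.38 CPM in young and 52.3, 13.01, 6.15, 18.5 and 4.75 CPM in old HDM201 mice. The groups overlapped widely, old HDM201 female 1 was again the highest, and the log2 fold change of 1.80 ± 0.63 passed narrowly (FDR = 0.0479). Without that mouse it was 0.96 and no longer called (FDR = 0.176), and with 1 mouse left out the call held only without old HDM201 female 3 or 5 or young vehicle female 4. For Cdkn1a the old vehicle mice lay at 10.5 to 22.3 CPM, within the range of the old HDM201 mice. Mdm2, the target of the drug and itself a p53 target, was at 30.5, 28.9, 30.1, 28.8 and 29.4 CPM in young and 38.1, 33.7, 29.9, 32.9 and 33.4 CPM in old HDM201 mice (0.18 ± 0.07, FDR = 0.0796, not called, but FDR = 0.043 without old HDM201 female 3). Old vehicle mice lay at 25.4 to 27.7 CPM, below every old HDM201 mouse. Trp53, which encodes p53, was at 22.6 to 30.8 and 27.5 to 30.4 CPM (0.08 ± 0.09, FDR = 0.525).

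Cdkn2a, the locus of p16 and p19, had 0 to 0.196 CPM in young and 0.267 to 0.835 CPM in old HDM201 mice and was too low to test. The ranges did not overlap, but they stand for few reads. Of 9 senescence-linked inhibitors of the cell cycle 1 was higher and 1 lower. Of 18 proliferation genes tested, 3 were higher and 1 lower, near or under the shares over all genes (14.2% and 12.6%). Mki67, the proliferation antigen, was at 0.252, 1.03, 0.572, 0.517 and 0.588 CPM and 1.51, 2.62, 1.21, 1.65 and 2.49 CPM (1.64 ± 0.32, FDR = 0.00274), while Rrm2, a subunit of ribonucleotide reductase, was at 13.7, 17.4, 10.1, 11.8 and 22.3 CPM and 4.44, 5.96, 6.03, 5.25 and 7.09 CPM (-1.39 ± 0.20, FDR = 0.000353).

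**Figure D3:**
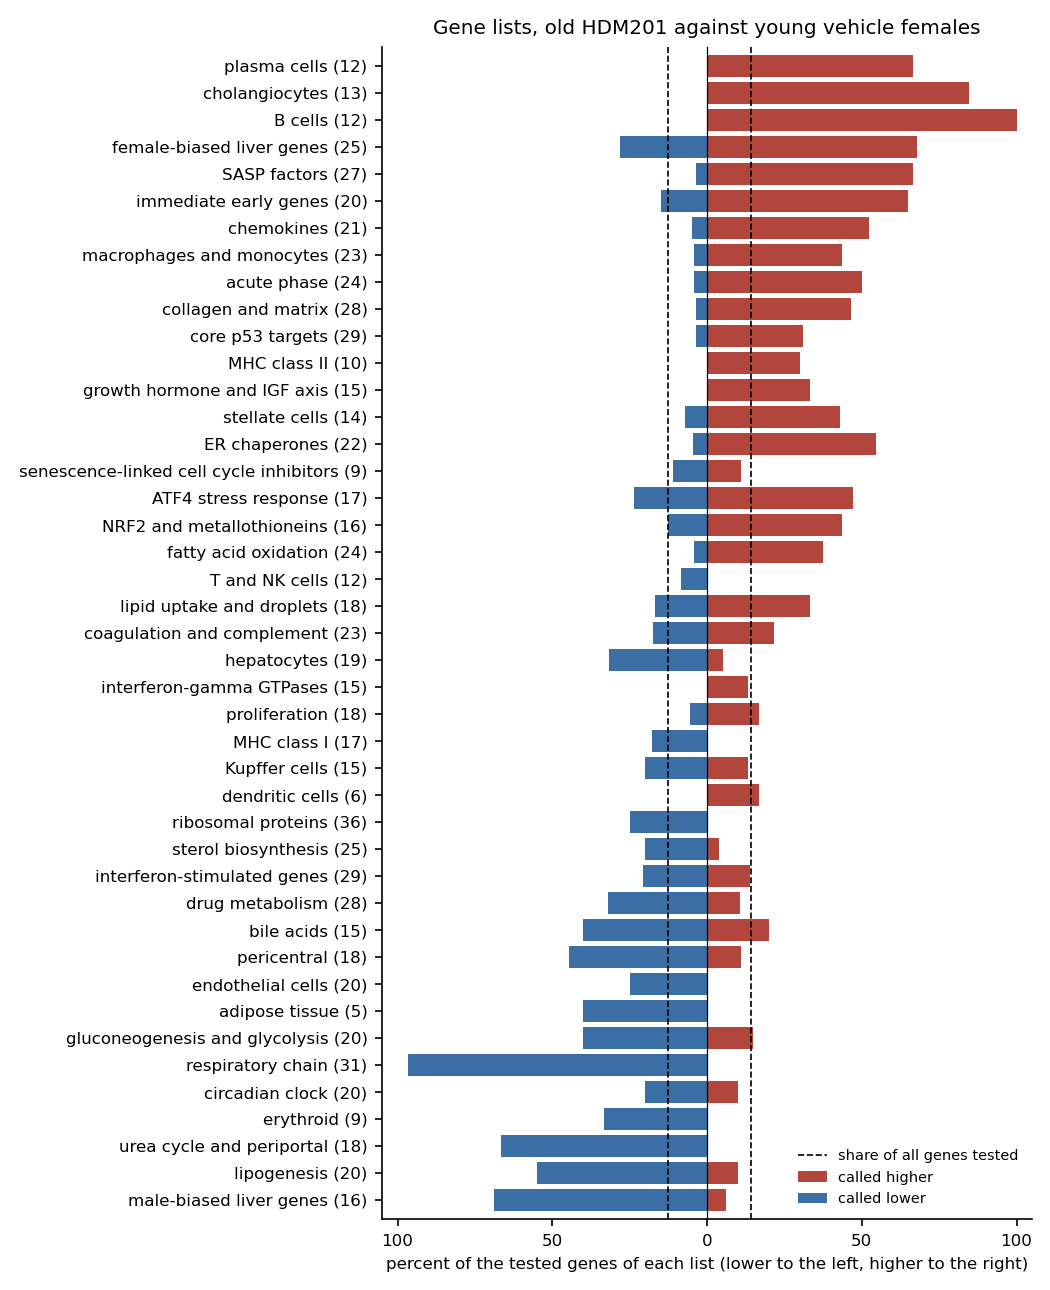
Bars give the percent of the tested genes of each list with at least 5 genes tested (number in brackets) that were called lower (blue, to the left) or higher (red, to the right) in old HDM201 than in young vehicle females, ordered by median log2 fold change. Dashed lines mark the shares over all genes tested, 12.6% lower and 14.2% higher, and among the lists drawn B cell genes on one side and respiratory chain genes on the other lie farthest from them.

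Lipid metabolism held changes of both directions. Of 20 lipogenic genes, 11 were lower and 2 higher (12.6% and 14.2% of all genes), with a median of -0.86 (-0.54 without young vehicle female 2). Thrsp, a regulator of fatty acid synthesis, was at 1383, 2351, 711, 1105 and 2367 CPM in young and 213, 281, 355, 154 and 587 CPM in old HDM201 mice (-2.32 ± 0.38, FDR = 0.000817). Elovl6, which lengthens palmitate, ran from 144 to 1174 CPM in young to 93.3 to 252 CPM in old HDM201 mice, which overlapped (-1.76 ± 0.44, FDR = 0.0104). Log2 fold changes were -1.10 for Fasn, the fatty acid synthase, -1.67 for Scd1, the stearoyl-CoA desaturase of liver, and -1.38 for Acly, which supplies acetyl-CoA. Genes of this kind are known to follow feeding, and their levels varied severalfold among the young mice. Against that trend Pnpla3, a lipid droplet protein, was higher, at 22.1 to 52.2 CPM in young and 55.8 to 66.6 CPM in old HDM201 mice (0.76 ± 0.20) and Scd2 from 7.44 to 15.004 CPM to 9.498 to 28.4 CPM (1.15 ± 0.26).

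Cd36, the fatty acid translocase, had the smallest p-value of all genes. It was at 26.5, 36.2, 31.7, 26.1 and 25.6 CPM in young and 132, 127, 126, 161 and 158 CPM in old HDM201 mice, 4.81-fold higher (2.27 ± 0.12 on the log2 scale, FDR = 4.11e-07). The spread within each group was far smaller than the gap between them, and old vehicle mice lay at 95.1 to 131 CPM. Of 18 genes of lipid uptake and droplets 6 were higher and 3 lower (14.2% and 12.6% of all genes). The lower count was 1 without old HDM201 female 2, 3 or 4 or young vehicle female 2 or 5. Fitm1, which helps form lipid droplets, was higher, at 2.305 to 5.23 CPM in young and 6.999 to 17.1 CPM in old HDM201 mice (1.96 ± 0.25, FDR = 0.000148).

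Fatty acid oxidation and PPARA target genes gave 9 higher and 1 lower of 24 (14.2% and 12.6% of all genes). Pdk4, the kinase that shuts glucose carbon out of the mitochondrion, was at 3.66, 3.896, 5.31, 7.87 and 6.91 CPM in young and 20.1, 22.4, 12.7, 25.2 and 11.3 CPM in old HDM201 mice (1.72 ± 0.25, FDR = 0.000411). Fgf21, a hormone that liver secretes in fasting, was at 1.198, 1.38, 0.572, 0.862 and 0.834 CPM in young and 8.66, 1.48, 5.95, 13.3 and 3.899 CPM in old HDM201 mice (2.78 ± 0.49, FDR = 0.00127). Old vehicle mice held 1.34 to 2.21 CPM of Fgf21, so that 4 of the 5 treated mice lay above all of them. Cyp4a14, a fatty acid hydroxylase, rose by 1.49 and Vnn1, a pantetheinase, by 1.47, whereas Ppargc1a, a coactivator of mitochondrial genes, was at -0.47.

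Cholesterol synthesis was near the young level. Of 25 sterol genes 1 was higher and 5 lower (14.2% and 12.6% of all genes), with a median of -0.15, and 9 were lower without young vehicle female 3. Msmo1, a methylsterol oxidase, was at 312, 254, 204, 247 and 300.0 CPM in young and 201, 195, 205, 193 and 179.7 CPM in old HDM201 mice (-0.44 ± 0.11, FDR = 0.00883), which overlapped. Old vehicle mice lay at 81.5 to 132 CPM, below both groups. Tm7sf2, a sterol reductase, was lower, at 275 to 322 CPM in young and 187 to 269.7 CPM in old HDM201 mice (-0.34 ± 0.10), and the 1 rise was that of Srebf2, the transcription factor of the pathway, from 77.7 to 104 CPM to 104 to 132 CPM (0.33 ± 0.09). With offsets for GC content and length that rise was not called (FDR = 0.142), nor was it without old HDM201 female 3 (FDR = 0.0506), and Tm7sf2 was not called without old HDM201 female 5 (FDR = 0.0526).

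The nuclear-encoded subunits of the respiratory chain were lower nearly without exception. Of 31 subunits, 30 were called lower (12.6% of all genes), 0 higher, and 25 did not overlap between the groups (17.0% of all genes). The differences were modest, at a median of -0.38 on the log2 scale, and the exception, Atp5d of the ATP synthase, was at -0.22 ± 0.09 (FDR = 0.0786). Ndufa1 of complex I was at 34.1, 27.8, 39.3, 43.5 and 36.9 CPM in young and 25.5, 21.5, 18.1, 15.98 and 17.6 CPM in old HDM201 mice (-0.88 ± 0.14, FDR = 0.000568). Sdhb of complex II was at 265, 255, 208, 275 and 264 CPM in young and 145, 173, 139.7, 133 and 152 CPM in old HDM201 mice (-0.77 ± 0.09, FDR = 0.000112). Complex III was represented by Cyc1 (-0.49), complex IV by Cox5b (-0.77) and the ATP synthase by Atp5c1 (-0.51). Sdhd, whose promoter is printed above and which was named after its values were seen, was at 231, 222, 199, 204 and 217 CPM and 173, 189, 165, 175 and 187 CPM (-0.27 ± 0.07, FDR = 0.0145), and with offsets for GC content and length it was at -0.17 and not called (FDR = 0.124).

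Those subunits have short transcripts, with a median annotated length of 1661 bases, and length moved with the comparison. Among the fifth of tested genes with the shortest transcripts 19.3% were lower and 9.16% higher, and among the fifth with the longest 7.83% were lower and 17.2% higher. With offsets for GC content and length 26 of the 31 subunits were still called lower, and 23 to 31 were when each mouse was left out in turn. The 36 cytosolic ribosomal protein genes tested, with a median length of 1124 bases, gave 9 lower and 0 higher (12.6% and 14.2% of all genes) at a median of -0.12. The lower count was 3 to 5 without old HDM201 female 3, 4 or 5 or young vehicle female 1 or 4. Transcripts of the mitochondrial genome took the smaller share of reads given above. The part of transcript length in these results was not tested beyond the offsets.

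**Figure D4:**
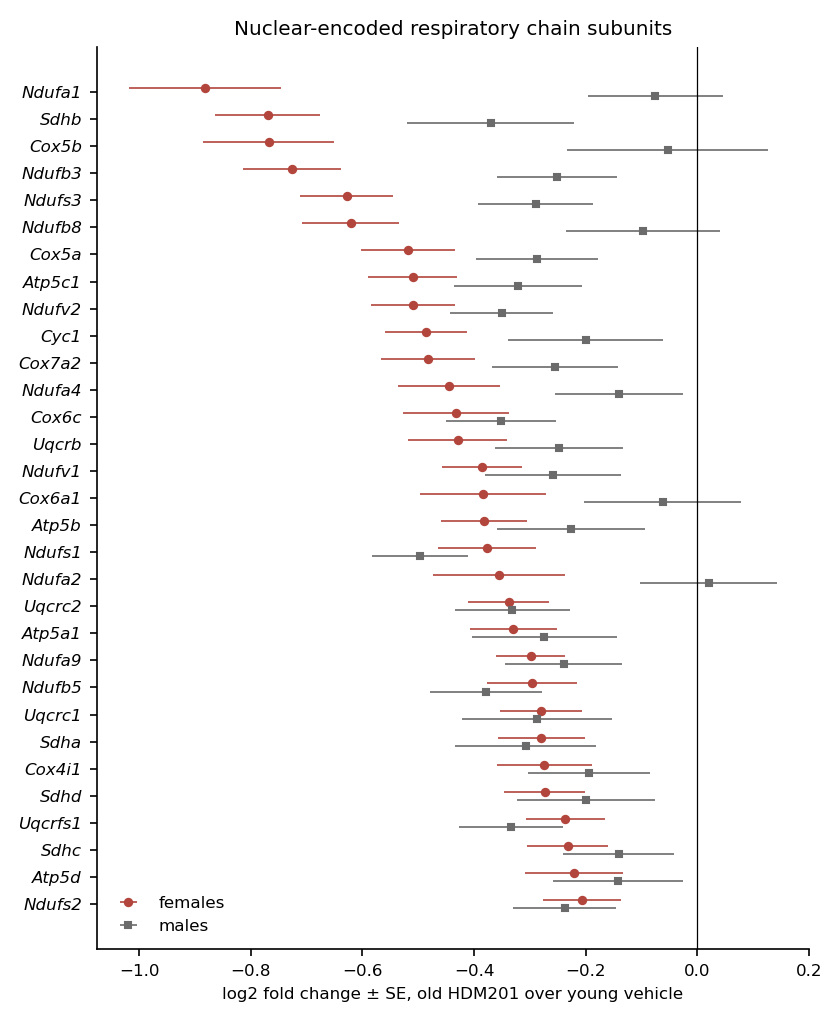
Points give the log2 fold change of old HDM201 over young vehicle mice for each of the 31 respiratory chain subunits, in females (red circles) and males (grey squares), with bars of 1 SE. All 31 female values lie below 0 and 30 are called lower, against 6 called lower in males (12.6% and 7.56% of all genes).

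Enzymes of nitrogen disposal and amino acid breakdown fell together. Of 18 urea cycle and periportal genes, 12 were lower and 0 higher (12.6% and 14.2% of all genes), with a median of -0.56. Ass1, the argininosuccinate synthase, was at 6978, 7240.1, 5792, 7065 and 7818 CPM in young and 2873, 3440.5, 3081, 2413 and 3286 CPM in old HDM201 mice (-1.21 ± 0.12, FDR = 2.41e-05). Sds, which deaminates serine, was at 536, 772, 529.7, 673 and 738 CPM and 209, 291, 338, 236 and 313 CPM (-1.23 ± 0.15, FDR = 9.47e-05). No old HDM201 mouse reached a young one for either gene. Log2 fold changes of the other enzymes of the cycle were -1.05 for Asl, -0.88 for Cps1, -0.58 for Arg1 and -0.54 for Otc. The summed level of the list was 28135 to 35204 CPM in young and 16591 to 21249 CPM in old HDM201 mice.

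Pericentral genes, expressed around the central vein under Wnt signals, gave 8 lower and 2 higher of 18 (12.6% and 14.2% of all genes). Their median was -0.26. Oat, the ornithine aminotransferase of that zone, was at 1088, 808, 966, 1000.1 and 869 CPM in young and 426, 341, 381, 317 and 343 CPM in old HDM201 mice (-1.39 ± 0.11, FDR = 3.51e-06). Members of both zones were thus lower. Of 20 endothelial genes 0 were higher and 5 lower, with 3 lower without old HDM201 female 1 or 3 or young vehicle female 2 or 5. Among them Wnt9b, one of the Wnt ligands made by the endothelium of the central vein, was at 1.83, 1.85, 1.51, 1.84 and 1.18 CPM and 0.783, 0.875, 0.665, 0.890 and 0.799 CPM (-1.03 ± 0.20, FDR = 0.00288).

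Hepatocyte identity genes gave 6 lower and 1 higher of 19 (12.6% and 14.2% of all genes), with a median of 0.05 and overlapping summed levels. Tat, the tyrosine aminotransferase, was at 2400.3, 3493, 2250.4, 3189.7 and 3681 CPM in young and 1270.5, 1872, 1936, 1172 and 1601 CPM in old HDM201 mice (-0.94 ± 0.17, FDR = 0.00164). Of 20 genes of glucose metabolism 8 were lower and 3 higher, and of 28 drug-metabolizing genes 9 were lower and 3 higher, with 1 higher without old HDM201 female 2 or 3 or young vehicle female 5. With offsets for GC content and length the drug-metabolizing list gave 7 higher and 6 lower.

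Bile acid genes gave 6 lower and 3 higher of 15 (12.6% and 14.2% of all genes). Slc10a1, which takes bile acids up from blood, was at 1274, 1257, 893, 1020.2 and 1102 CPM in young and 475, 565, 476, 464 and 538 CPM in old HDM201 mice (-1.14 ± 0.11, FDR = 2.25e-05). Abcc4, which exports them back to blood, was higher, at 2.36 to 5.69 CPM in young and 11.7 to 19.8 CPM in old HDM201 mice (2.02 ± 0.23, FDR = 7.68e-05). Abcb4, the phospholipid exporter of the canaliculus, was at 191, 163, 224, 177 and 170.2 CPM in young and 321, 252, 245, 288 and 254 CPM in old HDM201 mice (0.55 ± 0.10, FDR = 0.00202). The importer was lower and both exporters were higher, and for Abcb4 the old vehicle mice, at 184 to 192 CPM, lay within the young range. Cyp8b1, the sterol hydroxylase that yields cholic acid, overlapped at 149 to 315 and 40.99 to 209.8 CPM (-1.15 ± 0.37, FDR = 0.0347) and with 1 mouse left out kept its call only without old HDM201 female 1 or 2 or young vehicle female 1 or 3.

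Most bile duct genes tested were called higher. Of 13 cholangiocyte and ductular genes tested among 16 listed, 11 were higher and 0 lower (14.2% and 12.6% of all genes), with a median of 1.22. Genes low in young livers can pass the filter through the old HDM201 livers alone, so this count is a description. Summed over the list, the level was 407 to 491 CPM in young and 516 to 768 CPM in old HDM201 mice. Prom1, a membrane protein of ductular progenitors, was at 3.59, 3.33, 5.67, 2.64 and 3.48 CPM in young and 21.97, 35.6, 32.4, 23.3 and 28.8 CPM in old HDM201 mice (2.91 ± 0.19, FDR = 1.39e-06). Cd24a, an adhesion protein of ductular cells, was at 1.77, 2.97, 2.29, 2.13 and 2.06 CPM and 5.58, 6.89, 10.5, 6.099 and 6.39 CPM (1.65 ± 0.19, FDR = 8.52e-05). Neither overlapped. Epcam and the keratins Krt7 and Krt19 rose by 1.304, 1.12 and 0.91, and Sox9, a transcription factor of ducts, by 1.22.

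Of 28 collagen and matrix genes tested, 13 were higher and 1 lower (14.2% and 12.6% of all genes), with a median of 0.47. Col1a1, the main fibrillar collagen, rose by 1.16 ± 0.26 on the log2 scale (FDR = 0.00572) and Loxl1, which cross-links elastin, by 1.13. Of 14 stellate cell genes 6 were higher and 1 lower. Ngfr, a neurotrophin receptor of stellate cells, was at 3.03, 3.64, 3.901, 4.48 and 2.89 CPM in young and 8.298, 8.202, 7.82, 10.6 and 7.799 CPM in old HDM201 mice (1.25 ± 0.14, FDR = 7.67e-05). The summed levels of the stellate list overlapped between the groups.

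Acute phase genes gave 12 higher and 1 lower of 24 (14.2% and 12.6% of all genes), with a median of 0.51. Lcn2, an iron-withholding lipocalin, was at 8.64, 10.8, 7.698, 10.00 and 7.16 CPM in young and 50.7, 28.3, 36.3, 21.1 and 16.3 CPM in old HDM201 mice (1.78 ± 0.26, FDR = 0.000347). Cp, the copper protein ceruloplasmin, was at 1021, 927, 1166, 952 and 896 CPM and 3251, 1677, 2035, 1943 and 1721 CPM (1.10 ± 0.17, FDR = 0.00048), with old HDM201 female 1 the highest. Orm3, an orosomucoid, was the member that was lower, at 12.5 to 19.02 CPM in young and 1.42 to 10.7 CPM in old HDM201 mice (-1.69 ± 0.34). Of 23 coagulation and complement genes 5 were higher and 4 lower, with 1 or 2 lower without old HDM201 female 3, 4 or 5 or young vehicle female 1, 2 or 3.

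Immediate early genes, transcribed within minutes of a stimulus or of tissue handling, gave 13 higher and 3 lower of 20 (14.2% and 12.6% of all genes). Fos was at 0.504, 0.359, 0.364, 0.920 and 0.441 CPM in young and 3.71, 1.695, 2.08, 2.85 and 1.46 CPM in old HDM201 mice (2.19 ± 0.33, FDR = 0.000499). Egr1 was at 9.08, 7.13, 8.69, 9.94 and 19.4 CPM and 76.1, 27.7, 33.4, 30.8 and 24.6 CPM (1.82 ± 0.33, FDR = 0.00159). Both AP-1 and EGR factors were higher without overlap, yet Dusp1, a phosphatase of the same class with a cyclic AMP response element in its promoter, was at 43.7, 69.3, 46.2, 52.9 and 72.1 CPM in young and 22.02, 17.1, 26.03, 25.02 and 16.4 CPM in old HDM201 mice (-1.42 ± 0.17, FDR = 8.74e-05). Gadd45g, a stress sensor, was at -2.12.

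Of 22 endoplasmic reticulum chaperones and unfolded protein response genes 12 were higher and 1 lower (14.2% and 12.6% of all genes). Hyou1, a chaperone of that compartment, was at 72.3, 75.6, 85.8, 83.97 and 71.1 CPM in young and 174, 132, 168, 91.3 and 98.6 CPM in old HDM201 mice (0.77 ± 0.16, FDR = 0.00375), and old vehicle mice lay at 144 to 257 CPM. Targets of ATF4, the factor of the integrated stress response, gave 8 higher and 4 lower of 17. Trib3, a pseudokinase of that response, was at 4.46 to 12.3 CPM and 3.601 to 5.83 CPM (-1.07 ± 0.23), and Ddit4, an inhibitor of mTORC1 that p53 also transcribes, was at 8.57 to 67.1 CPM and 7.66 to 14.1 CPM (-1.60 ± 0.39), and both overlapped. NRF2 targets and metallothioneins gave 7 higher and 2 lower of 16.

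Clock genes depended on the mouse. Of 20, 2 were higher and 4 lower (14.2% and 12.6% of all genes), and no clock gene separated the groups without overlap. The lower count was 1 without young vehicle female 1 and 11 without old HDM201 female 5. It was 2 without old HDM201 female 1, 2 or 4 or young vehicle female 2 or 5. Ciart, with 3 E-boxes in the promoter printed above, was at 49.5, 55.9, 14.8, 17.3 and 48.4 CPM in young and 1.15, 1.04, 9.604, 1.202 and 20.4 CPM in old HDM201 mice (-2.46 ± 0.69, FDR = 0.0189). Npas2, which pairs with BMAL1 and peaks at the opposite time, was at 0.252, 0, 0.624, 2.36 and 0.343 CPM and 6.52, 9.35, 0.707, 4.23 and 0.376 CPM (2.56 ± 0.86, FDR = 0.0413), a call that with 1 mouse left out held only without old HDM201 female 3 or 5 or young vehicle female 4. The old HDM201 females 3 and 5 were the highest of their group for Ciart and the lowest for Npas2. Livers were taken in the morning, and hours for single mice are not used here.

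Erythroid transcripts were lower in part. Hba-a2, an alpha globin, was at 4.79, 5.13, 5.67, 5.35 and 5.15 CPM in young and 0.313, 3.12, 1.87, 0.401 and 1.74 CPM in old HDM201 mice (-1.82 ± 0.40, FDR = 0.00511), and old vehicle mice lay at 3.65 to 5.999 CPM. Its copies share reads. Of 9 erythroid genes 3 were lower and 0 higher (12.6% and 14.2% of all genes), with 5 lower without old HDM201 female 2. Transcripts of tissues that can adhere to a liver sample were also read. Of 12 exocrine pancreas genes 6 had no count in any of the 10 mice, 2 were tested and 1, Cela1, was lower. The summed level was 14.9 to 20.1 CPM in young and 7.43 to 8.91 CPM in old HDM201 mice. Most of that sum was Cela1 alone, at 12.7 to 18.3 CPM in young and 6.58 to 7.44 CPM in old HDM201 mice. Of 5 adipocyte genes tested 2 were lower and 0 higher.

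The same contrast in males, with 5 old HDM201 mice of 24 months and 4 young vehicle mice of 5 months, shares no mouse with the female one. There 2690 of 14024 genes (19.2%) were called, 1630 higher (11.6%) and 1060 lower (7.56%). Of 3655 female calls tested in males 2976 (81.4%) had the same sign, against 66.5% of all genes tested in both sexes, and 1225 were called in both, which is 33.5% of those female calls and 47.9% of the male calls tested in females. Among genes called in both sexes 1195 (97.6%) had the same direction. The interaction of sex and group was called for 523 of 14965 genes (3.49%), and 349 of the 512 tested in both sexes (68.2%) had opposite signs in females and males. Genes so called were picked for a difference between the sexes, so that share of opposite signs is a description. Old males were also 4 months older than old females by the labels, so sex and age difference cannot be told apart in this test.

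**Figure D5:**
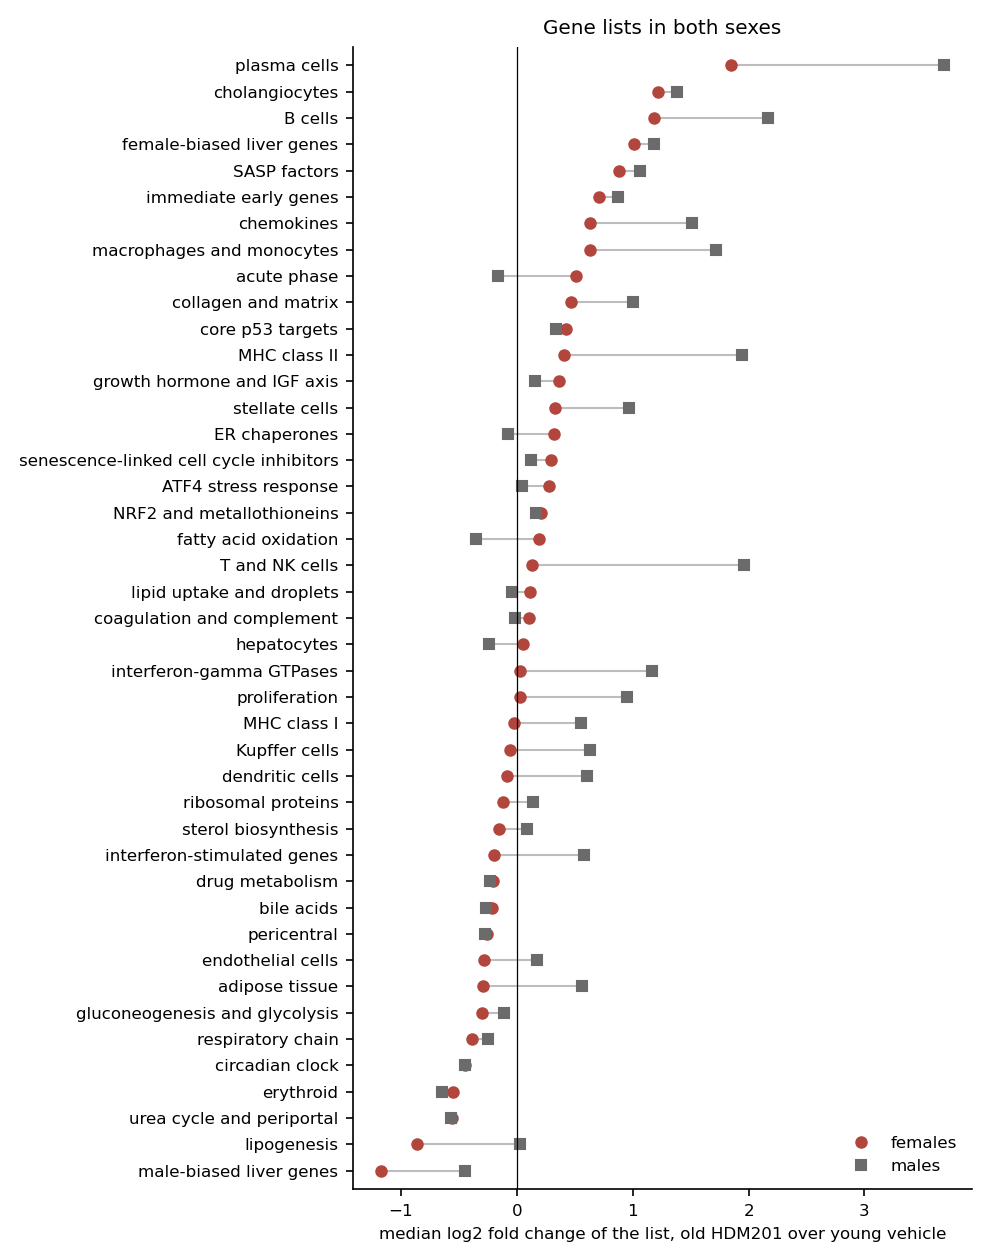
For each list with at least 5 genes tested, the median log2 fold change of old HDM201 over young vehicle mice is given in females (red circles) and males (grey squares), joined by a line. The lists of immune cells, chemokines, MHC and interferon genes sit farther to the right in males. Acute phase and coagulation and complement genes sit farther to the left in males, and lipogenesis sits farther to the left in females.

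Several dimorphic genes and others differed between the sexes in this contrast. Interactions were called for 6 of 25 female-biased and 6 of 23 male-biased genes (3.49% of all genes). The female minus male difference of log2 fold changes was -3.96 ± 0.43 for Slco1a1 (interaction FDR = 5.95e-05), which in males was at 153 to 333 CPM in young and 116 to 239 CPM in old HDM201 mice. It was 7.32 ± 1.29 for A1bg (FDR = 0.00513), at most 2.13 CPM in any male, and 5.80 ± 0.86 for Adcy1 (FDR = 0.00135), at most 3.26 CPM. Cyp2b13, lower in treated old females than in young ones, had no count in young males and was at 2.504, 6.902, 4.73, 0.160 and 3.08 CPM in old HDM201 males. Mup20 was lower in old HDM201 females but rose by 0.88 ± 0.18 in males (FDR = 0.00747, interaction FDR = 4.14e-05). Lratd2, a gene with a lecithin retinol acyltransferase domain whose interaction was 1.82 ± 0.25 (FDR = 0.00135), was at 13.2, 13.7, 18.9, 11.6 and 16.9 CPM in young and 41.5, 35.1, 28.6, 28.98 and 27.1 CPM in old HDM201 females (1.11 ± 0.15), and its male log2 fold change was -0.70 ± 0.20. Gm3839, lower in old HDM201 females, was at 0.52 ± 0.10 in males, and had the smallest p-value of the interaction (FDR = 3.78e-06).

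Many antigen presentation and interferon genes were called higher in males. All 10 MHC class II genes tested were called higher in males, with a median of 1.94 against 0.40 in females, and the interaction was called for 7 of 11, lower in females for each. H2-Aa rose by 1.99 ± 0.28 in males, a female minus male difference of -1.78 ± 0.32 (FDR = 0.00628). Among MHC class I genes 10 of 17 were higher in males, with 8 interactions, and among interferon-stimulated genes 13 of 29, with 10 interactions. Macrophage genes gave 22 of 24 higher in males and 9 interactions, and T and natural killer cell genes 10 of 16 higher and 2 interactions among 23. Those 16 are of 30 T and natural killer cell genes listed. Low genes can pass the filter through the old HDM201 males alone, so that count is a description. Over all genes tested in males 11.6% were called higher. The share of all genes with an interaction toward lower in females was 2.04%.

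Lipogenesis and the respiratory chain had lower medians in females, yet few of their genes passed the interaction test. Among lipogenic genes 0 were lower in males (7.56% of all genes) and 1 of 20 had an interaction (3.49% of all genes). Among respiratory chain subunits 6 were lower in males (7.56% of all genes) and the median was -0.25. Ndufa1 alone of the 31 had an interaction (-0.80 ± 0.19, FDR = 0.0288). Cd36 rose in males too, by 0.88 ± 0.15, and the female rise was larger by 1.39 ± 0.20 (interaction FDR = 0.00135). The urea cycle list had 9 of 18 genes lower in males (7.56% of all genes) with a median of -0.56, and no interaction was called in it. Of 13 cholangiocyte genes tested 9 were higher in males (11.6% of all genes), again as a description. Prom1, at 0.79 ± 0.50 in males, was the gene with an interaction (2.13 ± 0.52, FDR = 0.029).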

How the data were processed

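Polyadenylated RNA from whole liver in Trizol was sequenced in 29 mice, of which 27 have counts here. Reads were mapped on mm10 by the authors (STAR, 2 passes, then SAMtools), and the raw counts per gene they deposited were made with HTSeq. Tool versions and the strand setting are not given in the sources used here, so overlapping and antisense genes and near-identical copies are uncertain. The deposited FPKM table was not used.

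Tests were run with edgeR 4.0.16 in R 4.3.3, on the libraries of the groups compared and no others. Low genes were dropped by filterByExpr (count 10, total 15), libraries were scaled by TMM, and quasi-likelihood F tests were adjusted by Benjamini and Hochberg's method, with calls at an FDR under 0.05. The SE is the absolute log2 fold change divided by the square root of F. CPM were scaled by TMM over the 27 libraries. Alternatives used DESeq2 1.42.0, and scripts were tested on simulated data. Library measures were compared by exact permutation tests in scipy 1.17.1. Each library is a separate mouse. Intervals and floors cover counting error only.

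Genes were named by rule. From called protein-coding genes without overlap between the groups and with a mean of at least 1 CPM in the higher group, the 8 that rose most and the 8 that fell most were taken. Each list added up to 2 called rises and 2 called falls at that level. Label checks, Cdkn1a, Cdkn2a, Tgfb1, Tnf, Ifng and the 4 genes with the smallest interaction FDR completed them, and some genes so named are not reported here. The 46 lists hold 901 different genes, of which 897 were found. The comparison, its members and the lists were chosen with earlier results of these data known. Promoters come from RefSeq on GRCm38.p6, matched by gene symbol.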

Additional observations from a re-analysis of the deposited data

Results flagged for a closer look

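A single mouse stood apart in 26 of 287 sets of CPM, each set being the 4 or 5 females of 1 group for 1 gene described above. Its gap to the nearest mouse exceeded the 95% limit of Dixon's test, which chance passes in about 1 in 20 sets of normally distributed values. CPM were taken without a log and some sets hold few reads, so the 26 cannot be set against that rate. In the old HDM201 group this was old HDM201 female 1 for Cdkn1a (52.3 CPM), Cp (3251 CPM), Eda2r (6.42 CPM), Egr1 (76.1 CPM), Gm4316 (0.157 CPM), Gm7086 (1492 CPM), Phlda3 (16.5 CPM) and Sult3a1 (37.5 CPM), in each case as the highest of its group. The others of that group were female 3 for Cd24a (10.5 CPM), female 4 for Ngfr (10.6 CPM) and female 2 for Ifng (0.109 CPM), all high. Among the young vehicle mice female 5 was high for Egr1 (19.4 CPM), Scd2 (15.004 CPM) and Ifng (0.0490 CPM) and low for Trib3 (4.46 CPM). Young vehicle female 4 was high for Fos (0.920 CPM) and Npas2 (2.36 CPM), and young vehicle female 1 for Gdf15 (10.1 CPM), Timd4 (8.13 CPM) and Tnf (0.315 CPM). Among the old vehicle mice female 4 was high for Cp (1941 CPM), Gm7086 (712 CPM) and Zbp1 (16.96 CPM) and low for Zbed4-ps1 (2.86 CPM), and female 3 was high for Ciart (12.004 CPM) and Trib3 (4.70 CPM).

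The contrast of old HDM201 with young vehicle mice differed between the sexes, by the interaction test at an FDR under 0.05, for 19 of 96 genes described above. The female minus male difference of log2 fold changes was positive for A1bg (7.32), Adcy1 (5.80), Prom1 (2.13), Lratd2 (1.82) and Cd36 (1.39). Among dimorphic and drug-metabolizing genes it was negative for Cyp2b13 (-12.72), Slco1a1 (-3.96), Cyp2c54 (-3.53), Cyp2d9 (-2.80) and Mup20 (-2.42). The value of Cyp2b13 rests on young males without a count and is no measure of size. Among immune genes it was negative for Igkc (-2.51), H2-Aa (-1.78), Ctss (-1.41), H2-Q7 (-1.28) and Usp18 (-1.19). The remaining negative values were those of Gm3839 (-4.14), Adgrf1 (-3.49), Dusp1 (-0.90) and Ndufa1 (-0.80). Old males were 4 months older than old females by the labels, so that sex and age cannot be told apart here.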

How the results depend on the processing

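The female count of 3756 genes was 4167 with DESeq2, 3762 with another scaling (RLE), 3726 without the filter, 3589 with all groups in one fit, 4292 with the 3 female groups in one fit and 3462 with offsets for GC content and length, which were added after seeing the data. It was 1874 at an FDR under 0.01, 1467 when tested against a fold change of 1.2, and 2917 to 3792 with each mouse left out. The male count of 2690 was 1016 at an FDR under 0.01, 1383 against a fold change of 1.2, 4267 with all groups in one fit, where more samples share the estimate of the spread, and 1913 to 2470 with each mouse left out. The 523 interactions were 1081 with DESeq2, 73 at an FDR under 0.01, 116 against a fold change of 1.2, and 305 to 763 with each mouse left out. They were 348 without old HDM201 female 2, 318 without old HDM201 female 4 and 305 without young vehicle male 3. Where no reason is given, the cause was not tested.

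Mice of different groups share replicate numbers but are not paired. Same-numbered females correlated at -0.125 to 0.167 in their deviations from the group means and males at -0.305 to 0.108, and no old mouse correlated best with its own number. With the number as a block the female count was 3267 and the male count 1316.

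No gene described above changed direction in any of these fits. Of 93 such genes tested in females, 4 lost their call with the offsets, 3 with DESeq2 (of 92 to which it gave an adjusted p), 9 with all groups in one fit and 3 with the block, and over the fits with 1 mouse left out 26 of 930 calls were lost and 1 gained. With 1 mouse left out the lost calls were of Cdkn1a, Npas2, Cyp8b1, H2-Q7, Srebf2 and Tm7sf2 and the gained one of Mdm2. With the offsets they were of Cdkn1a, Npas2, Sdhd and Srebf2, with DESeq2 of Cdkn1a, Npas2 and Cyp8b1, with the block of Cdkn1a, Npas2 and H2-Q7, and with all groups in one fit of Ctss, H2-Q7, Lcn2, Msmo1, Mup11, Pnpla3, Scd2, Timd4 and Tm7sf2. Among the list counts, DESeq2 called 18 chemokine genes higher in place of 11, and with the offsets 8 endothelial genes were lower in place of 5, 7 clock genes in place of 4, 2 coagulation genes in place of 4, and 3 genes of the growth hormone axis higher in place of 5. Genes near or under 1 CPM, as in the lists of T, dendritic and B cells, rest on few reads.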
